A study of Mus musculus with 28 samples.

Results

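Transferred T cells were compared with the tumour cells of the tumours they had entered, in the 10 day 16 libraries of a series of 28 mouse RNA libraries. These were all the libraries of the day 16 table, 5 of OT1 T cells and 5 of tumour cells. A gene was tested when it reached at least 1 TPM (transcripts per 1000000) in at least 5 of the 10 libraries, which kept 13511 of 55291 genes. OT1 cells are transgenic CD8 T cells with 1 antigen receptor, which recognises a peptide of ovalbumin, and their label gives the genotype OT1. The tumour cells were LLC-OVA-NGFR cells, a mouse lung carcinoma line made to carry ovalbumin and the surface tag NGFR, and their label gives the genotype WT. The line was injected under the skin of Rag1 ko mice, which lack T and B cells and keep myeloid and NK cells. Activated OT1 cells were given through the tail vein on day 9, and both cell types were sorted from the tumours on day 16, so both groups came from treated mice and no untransferred tumour is part of the comparison. The labels used here give no age for the mice. The series asks how glucose transporter expression differs between tumour cells and tumour-reactive T cells, and the same libraries show what else sets these cells apart.

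CD8 T cells that enter a tumour are held there by chemokine and adhesion receptors, read ligands on the tumour cell through activating and inhibitory receptors, and kill with granzymes and ligands of death receptors. Carcinoma cells in turn are anchored by junctions, matrix and focal adhesions, and many are driven by receptor tyrosine kinases and the YAP and TAZ coactivators. A leukocyte builds its cytoskeleton largely from its own paralogs of widely used proteins, so the same machine can be encoded by different genes on either side of the contact.

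The defining markers lay where the labels put them. Cd3e, a signalling chain of the T cell receptor complex, had 700.2, 539, 568, 567 and 372 TPM in OT1 libraries 1 to 5, against 0.152, 0.0726, 0, 0.313 and 0.347 TPM in tumour libraries 1 to 5. Cd8a, the CD8 coreceptor chain, had 488, 466, 509, 442 and 268 TPM in OT1 libraries 1 to 5, against 0.326, 0.16, 0.0578, 0.423 and 0.344 TPM in tumour libraries 1 to 5. Both were high in every OT1 library and at most 0.423 TPM in any tumour library. Krt8, a keratin of simple epithelia, had 48.6, 26.8, 21.8, 41.7 and 14.7 TPM in OT1 libraries 1 to 5, against 376, 403, 399.7, 383 and 470.2 TPM in tumour libraries 1 to 5. Its partner Krt18 had 10.0, 5.58, 5.11, 8.85 and 3.59 TPM in OT1 libraries 1 to 5, against 79.8, 86, 88.5, 72.2 and 82.4 TPM in tumour libraries 1 to 5. The keratins were high in every tumour library and low but present in every OT1 library, and the groups did not overlap for any of these genes.

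The OT1 libraries held RNA of other cells, and they differed in how much. Markers of myeloid cells summed to 2159, 9601, 4368, 6168 and 27599 TPM in OT1 libraries 1 to 5, against 187 to 339 TPM in tumour libraries, and all 24 tested markers of the 26 listed were higher in OT1 cells. Among all genes tested 30.1% were higher. The markers Ly6g and Mpo were below the filter. Tumour markers stood at 12%, 6.18%, 5.97%, 10.8% and 3.63% of their mean tumour level in OT1 libraries 1 to 5 (median over the 9 tested markers), whereas T cell markers stood at a median of 0.0311% to 0.1% of their mean OT1 level in tumour libraries. The tested T cell marker with the highest share there was Cd247, at 3.68% of its mean OT1 level. Haemoglobin and platelet genes varied within both groups, from 344 to 2995 TPM in OT1 libraries and from 12.3 to 907 TPM in tumour libraries, and fibroblast and endothelial markers summed to 80.3 to 142 TPM in OT1 libraries and 336 to 872 TPM in tumour libraries. Of the B cell markers, Ms4a1 averaged 0.0138 TPM in OT1 cells and was listed at 0 in tumour cells, while Pax5 averaged 0.604 TPM in OT1 cells, against 6.64 TPM in tumour cells. Cd4, the helper T cell marker, averaged 4.1 TPM in OT1 cells, against 0.0196 TPM in tumour cells. In such bulk RNA, fewer cells of a type and less RNA per cell cannot be told apart. Counts of the main lists are therefore also given without OT1 libraries 2, 4 and 5, which held the most myeloid RNA. Leaving these libraries out lowered the myeloid RNA but did not remove it. All 24 tested myeloid markers were still higher in OT1 cells. Their median log2 difference was 3.87, against 4.81 with all libraries. The part of myeloid RNA in list counts that stayed the same was therefore not tested. Means are given ± SD over 5 libraries, and the labels do not say that libraries came from separate mice, so p-values cover no more than the variation among these samples, part of which may be technical. The number of reads behind a TPM is unknown.

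**Figure D1:**
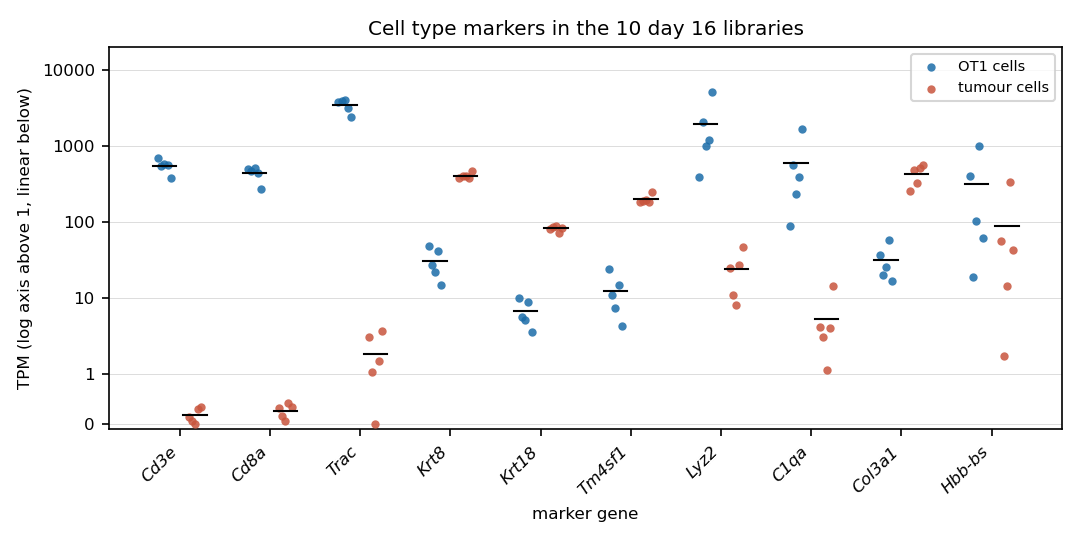
Level of 10 marker genes in each library, in TPM on an axis that is logarithmic above 1 and linear below, with OT1 cells left of tumour cells for each gene. Points are libraries and lines are group means. Cd3e, Cd8a and Trac are separated from the tumour libraries by several steps of the axis, the myeloid genes Lyz2 and C1qa spread widely among OT1 libraries, and Hbb-bs overlaps between the groups.

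Most genes differed between the cell types. The limma fit on log2(TPM + 1) called 10059 of 13511 genes at an adjusted p under 0.05, which is 74.5% of those tested, with 4061 (30.1%) higher in OT1 cells and 5998 (44.4%) lower. The median gene was lower in OT1 cells by a log2 difference of -0.21. Scaling each library by median-of-ratios size factors raised that median by 0.26 and turned the split to 5215 higher and 4709 lower, so small differences depended on the scaling. A stricter call that also asked for a 4-fold difference on this scale was met by 1353 genes higher in OT1 cells (10.0%) and 1034 lower ones (7.65%). When OT1 libraries 2, 4 and 5 were left out it was met by 1248 and 1079 genes, of which 1214 and 949 were among those called with all libraries. The 2 groups of libraries did not overlap for 8522 genes (63.1%). A difference on this scale understates the fold change of genes near 0 TPM, and 833 of the 1353 higher genes averaged under 1 TPM in tumour cells. A gene under 1 TPM in every library of 1 group could pass the filter only through the other group, so its direction was fixed.

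Among the 12 largest differences upward were receptor and killing genes of cytotoxic T cells, and also less familiar ones. Trac, the constant region of the receptor's alpha chain, had 3815, 3865, 4058, 3113 and 2399 TPM in OT1 libraries 1 to 5, against 3.06, 1.06, 0, 1.48 and 3.62 TPM in tumour libraries 1 to 5. Ms4a4b, a membrane protein of T cells, had 1144, 1386, 1364, 999 and 879 TPM in OT1 libraries 1 to 5, against 1.24, 0.692, 1.13, 0.245 and 2.05 TPM in tumour libraries 1 to 5. B4galnt1, which makes the complex gangliosides of the cell surface, had 736, 652, 693, 647 and 546 TPM in OT1 libraries 1 to 5, against 1.04, 0.177, 0.277, 0.492 and 1.43 TPM in tumour libraries 1 to 5. None of these 3 genes exceeded 4 TPM in a tumour library, and their OT1 libraries lay within a factor of about 2 of each other. The other 9 were Trbc2, Cd3g, Cd3e, Nkg7, Gzmb, Ly6c2, Coro1a, Rac2 and Gimap4, with log2 differences from 8.57 to 10.02.

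The 12 largest differences downward were genes at high levels in every tumour library. Tm4sf1, a tetraspanin-like protein of many carcinomas, had 23.7, 11, 7.41, 14.5 and 4.2 TPM in OT1 libraries 1 to 5, against 182, 188, 193, 183 and 248 TPM in tumour libraries 1 to 5. Cald1, the actin regulator caldesmon, had 44.6, 22.5, 17.9, 38.3 and 7.65 TPM in OT1 libraries 1 to 5, against 350.3, 379, 395, 316 and 414 TPM in tumour libraries 1 to 5. Col16a1, a matrix collagen, had 7.95, 5.78, 5.33, 9.56 and 0.996 TPM in OT1 libraries 1 to 5, against 73.9, 90.0, 101, 121 and 112 TPM in tumour libraries 1 to 5. In each of them the OT1 libraries with the most residual keratin, 1 and 4, were the highest of the OT1 group. The other 9 were Platr16, Rhox5, Hmga2, Ly6c1, Tcim, Col5a3, Wfdc2, Ddr2 and Steap1, with log2 differences from -4.09 to -3.87. Of all 1034 genes lower by 4-fold, 292 stood in OT1 cells at or under 8.11% of their tumour level, the median of the tumour markers.

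One gene pair split between these 2 lists. Ly6c2, a surface antigen of memory and effector CD8 T cells and monocytes, had 977, 1575, 1284, 818 and 1002 TPM in OT1 libraries 1 to 5, against 2.28, 0.194, 0.566, 2.01 and 3.09 TPM in tumour libraries 1 to 5. Ly6c1, its neighbour on chromosome 15, had 28.7, 22, 15, 46.8 and 7.86 TPM in OT1 libraries 1 to 5, against 254, 290.5, 314, 467 and 382 TPM in tumour libraries 1 to 5. In the GRCm38.p6 annotation Ly6c2 spans 75108161 to 75112066 and Ly6c1 spans 75044018 to 75048920. The 2 genes are near-identical copies, so how the authors' counting divided their shared reads is uncertain, but neither direction overlapped between groups.

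The promoters of a T cell pair and a tumour pair of these genes are printed to show what short factor motifs they hold, since RUNX, T-box and ETS factors regulate many genes of cytotoxic T cells. Each runs from 250 bases before to 50 bases after a RefSeq start in GRCm38.p6, in the direction of transcription, with matches to the motifs in capitals.
Cd3e, chr9:45009562-45009861, minus strand: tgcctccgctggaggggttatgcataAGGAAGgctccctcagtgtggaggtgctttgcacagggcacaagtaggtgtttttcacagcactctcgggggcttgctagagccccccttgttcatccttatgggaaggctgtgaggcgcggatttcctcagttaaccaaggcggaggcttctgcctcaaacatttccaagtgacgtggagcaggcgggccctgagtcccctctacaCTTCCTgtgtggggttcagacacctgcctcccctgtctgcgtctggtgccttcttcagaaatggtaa
Nkg7, chr7:43436888-43437187, plus strand: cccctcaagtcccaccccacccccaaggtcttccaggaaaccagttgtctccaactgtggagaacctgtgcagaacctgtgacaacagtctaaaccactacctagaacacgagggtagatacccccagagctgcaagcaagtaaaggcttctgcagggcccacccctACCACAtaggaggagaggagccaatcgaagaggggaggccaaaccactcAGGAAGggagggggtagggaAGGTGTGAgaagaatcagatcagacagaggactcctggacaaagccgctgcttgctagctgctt
Krt8, chr15:102004293-102004592, minus strand: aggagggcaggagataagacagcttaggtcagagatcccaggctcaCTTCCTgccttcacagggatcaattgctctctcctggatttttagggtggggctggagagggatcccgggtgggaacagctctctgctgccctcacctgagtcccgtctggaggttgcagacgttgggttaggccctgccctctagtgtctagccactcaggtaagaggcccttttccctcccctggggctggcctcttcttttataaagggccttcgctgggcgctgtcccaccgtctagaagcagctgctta
Tm4sf1, chr3:57301939-57302238, minus strand: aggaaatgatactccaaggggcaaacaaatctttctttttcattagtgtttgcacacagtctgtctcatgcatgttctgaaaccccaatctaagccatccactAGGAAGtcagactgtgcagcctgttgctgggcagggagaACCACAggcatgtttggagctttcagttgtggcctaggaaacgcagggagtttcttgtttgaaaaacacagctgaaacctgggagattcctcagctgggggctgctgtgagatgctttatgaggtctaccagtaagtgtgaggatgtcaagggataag
The capitals mark RUNX (TGTGGT or ACCACA), T-box (AGGTGTGA or TCACACCT) and ETS (AGGAAG or CTTCCT) letters, searched on both strands, and none of the matches overlapped. Counted from the start, Nkg7 held a RUNX match at -83, an ETS match at -34 and a T-box match at -14. Cd3e held ETS matches at -224 and -17, Krt8 an ETS match at -204, and Tm4sf1 an ETS match at -147 and a RUNX match at -108. Promoters were in the table for 9921 of the 13511 genes tested. The RUNX letters were in 21.1% of the promoters of the genes 4-fold higher in OT1 cells, in 11.8% of those 4-fold lower and in 12.9% of all tested. The ETS letters were in 48.4% of the first, 30.2% of the second and 33.6% of all, and the T-box letters in 1.85%, 1.04% and 0.877%. GGAATG or CATTCC, the core letters of TEAD sites, ran the other way, at 11.5% of the genes 4-fold higher, 16.6% of those 4-fold lower and 11.5% of all, while TGANTCA, the AP-1 letters, were at 7.30%, 7.02% and 4.99%. A match is a description of letters and not a binding site.

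The antigen receptor transcripts came almost wholly from segments of the OT1 receptor. The variable segment Trbv12-1 averaged 3134 TPM in OT1 cells and 2.52 TPM in tumour cells and made up 99.9% of all Trbv transcripts in OT1 cells. Trav14d-1 at 2029 TPM and Trav14n-1 at 1764 TPM made up 52.9% and 46.0% of Trav transcripts there. These 2 segments are close copies of one another, so the division between them is uncertain. The next segment, Trav21-dv12, took 0.269%. Trdc, the constant region of the delta chain, had 50.7, 60.1, 56.6, 45.3 and 47.4 TPM in OT1 libraries 1 to 5, against 0.0251, 0, 0.0435, 0.0622 and 0.0254 TPM in tumour libraries 1 to 5, with no overlap between groups.

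Genes of T cell function were counted in lists (names are in full in the plot of lists). All 8 GIMAP GTPases, which support lymphocyte survival, were higher in OT1 cells by 4-fold, with a list median log2 difference of 7.24 against -0.21 over all genes tested. Of 26 tested genes of the costimulatory list, 25 were higher, 24 of them by 4-fold, and Tnfsf9 did not pass. That list also holds inhibitory receptors such as Btla and ligands such as Tnfsf14. Of 49 transcription factors, 41 were higher (33 by 4-fold), 3 lower and 5 did not pass. Of 15 NK-type receptors 14 were higher (11 by 4-fold), and of 15 chemokine receptors 13 were higher (11 by 4-fold), where the background was 30.1% higher and 10.0% by 4-fold. Without OT1 libraries 2, 4 and 5 the 4-fold counts of these 5 lists were 8, 24, 32, 13 and 11, in the same order. Members under 1 TPM in every tumour library could only come out higher, so these counts do not test their direction.

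**Figure D2:**
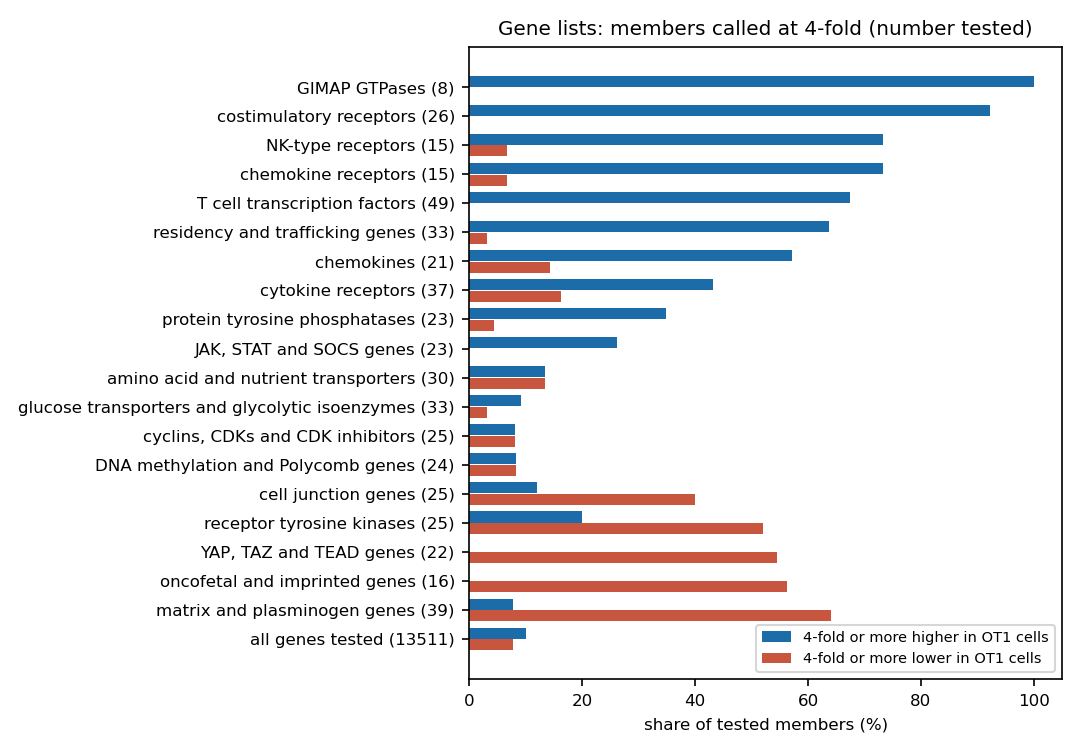
Share of each list's tested members that were higher (blue) or lower (red) in OT1 cells by 4-fold or more, in percent, with the number tested in brackets. The GIMAP, costimulatory, transcription factor, NK-type, chemokine receptor and residency lists reach from 63.6% to 100% higher, the matrix, oncofetal, YAP and kinase lists lie between 52.0% and 64.1% lower, and the cyclin, methylation and nutrient lists lie near all genes tested.

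Transcripts of several costimulatory receptors were present at once. Cd28, the main costimulatory receptor, had 115, 128, 121, 110.1 and 75 TPM in OT1 libraries 1 to 5, against 0.0443, 0.0575, 0.0383, 0.0914 and 0.0448 TPM in tumour libraries 1 to 5. Tnfrsf9, an inducible costimulatory receptor of the TNF receptor family, had 283, 262, 295, 322 and 199.7 TPM in OT1 libraries 1 to 5, against 31.5, 20.5, 31.1, 21.3 and 15.6 TPM in tumour libraries 1 to 5. Cd27, Tnfrsf18, Tnfrsf4 and Icos, further receptors of activated T cells, averaged 263, 132, 53.9 and 39.5 TPM in OT1 cells, against 0.553, 1.63, 0.75 and 0.0246 TPM in tumour cells. Cd28 was near 0 in every tumour library, but Tnfrsf9 stood there at 8.8% of its OT1 level, and Cd3e at 0.0322%. Tnfrsf9 was named after its values were seen.

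NK-type receptors followed the same side. Klrk1, which encodes the activating receptor NKG2D, had 497, 483, 515, 401 and 287 TPM in OT1 libraries 1 to 5, against 0.417, 0.0867, 0.419, 0.58 and 0.0937 TPM in tumour libraries 1 to 5. Klrd1 and Klrc1, the chains of the inhibitory CD94 and NKG2A receptor, averaged 470.3 and 424 TPM in OT1 cells, against 0.446 and 0.495 TPM in tumour cells. Klre1 averaged 69.4 TPM in OT1 cells, against 0.0848 TPM in tumour cells, with 108, 69.1, 85.8, 53.4 and 31.2 TPM in OT1 libraries 1 to 5. Klra4, of the Ly49 family, was lower in OT1 cells, with 1.82, 1.55, 0.954, 1.48 and 1.9 TPM in OT1 libraries 1 to 5, against 11.8, 8.98, 9.05, 8.72 and 8.62 TPM in tumour libraries 1 to 5. The NK markers Klrb1c and Ncr1 gave 6.66 TPM and a level below the filter in OT1 cells. Genes of the Klr cluster are close copies, so reads shared between them may have been divided unevenly.

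Among transcription factors, those of both effector and stem-like T cells were higher in OT1 cells. Tcf7, the factor of stem-like and memory T cells, had 169.7, 199, 202, 197 and 209 TPM in OT1 libraries 1 to 5, against 0.942, 0.638, 0.734, 0.583 and 1.48 TPM in tumour libraries 1 to 5. Tox, a factor of chronically stimulated T cells, had 61.5, 17.8, 37, 28.5 and 8.77 TPM in OT1 libraries 1 to 5, against 0.0734, 0, 0, 0 and 0 TPM in tumour libraries 1 to 5. Tcf7 was even in TPM across OT1 libraries, but relative to Cd3e it ran from 24.2% in library 1 to 56.3% in library 5. Tox spanned a wide range in TPM and was listed at 0 in 4 tumour libraries. Tbx21, Eomes and Runx3, which drive the cytotoxic programme, averaged 67.5, 43.5 and 74.1 TPM in OT1 cells, against 0.0528, 2.22 and 0.174 TPM in tumour cells.

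The helix-loop-helix inhibitors split. Id2, which favours effector cells, had 256, 358, 273, 246 and 357 TPM in OT1 libraries 1 to 5, against 11.8, 7.71, 9.67, 12.8 and 8.6 TPM in tumour libraries 1 to 5 (log2 difference 4.75, SE 0.16, limma adjusted p = 1.89e-10). Id3, which favours memory precursors, had 14.8, 12.4, 14.1, 15.3 and 9.99 TPM in OT1 libraries 1 to 5, against 30.7, 46.5, 39, 40.0 and 38.4 TPM in tumour libraries 1 to 5 (log2 difference -1.48, SE 0.14, limma adjusted p = 1.27e-06). Neither gene overlapped between the groups. Runx1 and Foxo3 were the other 2 factors lower in OT1 cells, at 26.5 against 48 TPM and 17.5 against 24.3 TPM, and their libraries overlapped.

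Receptors that guide T cells into tissue were among the clearest. Cxcr6, the receptor of CXCL16 found on resident T cells, had 142, 179.6, 142, 97.3 and 118 TPM in OT1 libraries 1 to 5, against 0.0555, 0.159, 0.192, 0.367 and 0.112 TPM in tumour libraries 1 to 5. Cxcr3, the receptor of interferon-induced chemokines, had 47.6, 92.9, 78.4, 45 and 105 TPM in OT1 libraries 1 to 5, against 0.433, 0.829, 0.749, 0.612 and 0.938 TPM in tumour libraries 1 to 5. Ccr2, which monocytes share with effector T cells, had 44.8, 106, 50.1, 41.1 and 115 TPM in OT1 libraries 1 to 5, against 0.614, 0, 0.292, 0.373 and 0.472 TPM in tumour libraries 1 to 5. All 3 were higher in every OT1 library, and Cxcr3 and Ccr2 were highest in OT1 library 5, where the myeloid sum was also highest. Their part from myeloid cells was not tested. Ackr3, a scavenging receptor of CXCL12, and Ccr10 were the 2 receptors lower in OT1 cells, at 1.65 against 19.5 TPM and 0.21 against 1.83 TPM.

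Residency and exit genes gave a mixed picture. Of 33 tested genes 24 were higher (21 by 4-fold), 5 lower and 4 did not pass, against 23 higher and 6 lower without OT1 libraries 2, 4 and 5. The share over all genes tested was 30.1% higher and 44.4% lower. Itgae, which encodes the residency integrin CD103, had 1.39 ± 0.425 TPM in OT1 cells, against 0.114 ± 0.0412 TPM in tumour cells, no more than 2.08 TPM in any library, and was not tested because it met the filter in too few libraries. S1pr1, the receptor by which lymphocytes leave tissue, had 8.14, 23.4, 13.4, 10.9 and 42.4 TPM in OT1 libraries 1 to 5, against 1.69, 3.64, 2.96, 1.26 and 3.65 TPM in tumour libraries 1 to 5 (log2 difference 2.33, SE 0.39, limma adjusted p = 0.0002). S1pr1 was lowest in OT1 library 1 and highest in library 5, as the myeloid sum was. Cd69, an early activation and residency marker that opposes S1pr1, averaged 58.3 TPM in OT1 cells, against 0.208 TPM in tumour cells. Itga3, an integrin for laminin, was the gene lower by 4-fold, at 8.69 against 75.1 TPM.

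Of 21 tested chemokine genes, 14 were higher (12 by 4-fold), 5 lower (3 by 4-fold) and 2 did not pass, against 12 higher and 7 lower without OT1 libraries 2, 4 and 5. Over all genes tested 30.1% were higher (10.0% by 4-fold) and 44.4% lower (7.65% by 4-fold). Xcl1, which attracts cross-presenting dendritic cells, had 277, 227, 254, 277 and 183 TPM in OT1 libraries 1 to 5, against 2.86, 0, 0, 0.587 and 0 TPM in tumour libraries 1 to 5. Ccl5, a chemokine of effector CD8 T cells, had 624, 1785, 859.9, 640.2 and 1980.5 TPM in OT1 libraries 1 to 5, against 3.11, 5.65, 5.73, 5.57 and 7.5 TPM in tumour libraries 1 to 5. Ccl3 and Ccl4 averaged 213 and 261 TPM in OT1 cells, against 1.65 and 0.652 TPM in tumour cells. Xcl1 was even across OT1 libraries, while Ccl5 was about 3 times as high in libraries 2 and 5 as in library 1.

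The 5 chemokines lower in OT1 cells were Ccl2, Cxcl1, Cx3cl1, Ccl25 and Cxcl11. Ccl2, a monocyte attractant, had 153, 207, 166, 208 and 198 TPM in OT1 libraries 1 to 5, against 985, 1166, 1121, 957 and 993 TPM in tumour libraries 1 to 5 (log2 difference -2.49, SE 0.11, limma adjusted p = 1.85e-09). Cxcl1, a neutrophil attractant, had 44.3, 28.2, 25.9, 31.9 and 23 TPM in OT1 libraries 1 to 5, against 339, 309, 262, 249 and 186 TPM in tumour libraries 1 to 5 (log2 difference -3.10, SE 0.19, limma adjusted p = 4.98e-08). Cxcl10, an interferon-induced ligand of CXCR3, had 30.6, 160.2, 89.5, 114 and 167 TPM in OT1 libraries 1 to 5, against 101, 242, 250.5, 141 and 258 TPM in tumour libraries 1 to 5. Cx3cl1, the ligand of the fractalkine receptor, averaged 1.97 TPM in OT1 cells, against 23.4 TPM in tumour cells, Ccl25 averaged 3.78 TPM in OT1 cells, against 14.2 TPM in tumour cells and Cxcl11, another ligand of CXCR3, averaged 0.781 TPM in OT1 cells, against 2.46 TPM in tumour cells. Other attractants of monocytes and neutrophils were higher in OT1 cells, with Ccl8 at 271 against 5.59 TPM, Ccl12 at 38.6 against 0.555 TPM, Cxcl3 at 50.1 against 1.51 TPM and Cxcl2 at 238 against 150 TPM, and Ccl7 did not pass. Ccl2 and Cxcl1 were lower in every OT1 library, and Cxcl10 overlapped and did not pass (log2 difference -0.94, limma adjusted p = 0.0715). The Cxcl10 difference passed with the replicate block, without any of OT1 replicate 2, OT1 replicate 5 or tumour replicate 1, and without OT1 libraries 2, 4 and 5, with values from -1.81 to -0.94. Of the 12 chemokines higher by 4-fold, 6 were at least 4 times as high in OT1 library 5 as in library 1, which was so for 232 of all 1353 genes higher by 4-fold (17.1%).

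Among all genes tested 30.1% were higher (10.0% by 4-fold) and 44.4% lower (7.65% by 4-fold). Of 37 tested cytokine receptor genes, 23 were higher (16 by 4-fold), 11 lower (6 by 4-fold) and 3 did not pass, and without OT1 libraries 2, 4 and 5 the counts were 23 and 13. Of the 16, 3 were at least 4 times as high in OT1 library 5 as in library 1, a share near that of all genes higher by 4-fold. Il2rb, the beta chain shared by IL-2 and IL-15 receptors, had 655, 546, 589, 466 and 337 TPM in OT1 libraries 1 to 5, against 1.04, 0.68, 1.03, 0.981 and 0.528 TPM in tumour libraries 1 to 5. Il7r, the receptor of naive and memory T cells, had 69.2, 111, 108, 62.8 and 106 TPM in OT1 libraries 1 to 5, against 0.0556, 0, 0.0611, 0.0684 and 0.256 TPM in tumour libraries 1 to 5. Il2rg, the common gamma chain, had 449, 537, 523, 465 and 489.7 TPM in OT1 libraries 1 to 5, against 32.2, 26.3, 30.2, 36 and 55.4 TPM in tumour libraries 1 to 5. The first 2 were at 1.04 TPM or less in every tumour library, but Il2rg stood there at 7.31% of its OT1 level, above the share of every tested T cell marker. Il12rb2 and Il18r1, through which interleukins raise interferon gamma, averaged 64.4 and 126 TPM in OT1 cells, against 0.0659 and 0.312 TPM in tumour cells.

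Receptors of the IL-1 family lay on both sides. Il1r1, the IL-1 receptor, averaged 2.58 TPM in OT1 cells, against 32.3 TPM in tumour cells, and Il1rl1, the IL-33 receptor, averaged 6.42 TPM in OT1 cells, against 57.9 TPM in tumour cells. Il1r2, the decoy receptor of IL-1, was higher in OT1 cells and averaged 21.2 TPM in OT1 cells, against 1.92 TPM in tumour cells. Il18rap, the second chain of the IL-18 receptor, was close in both, at 133 ± 31 TPM in OT1 cells, against 95.3 ± 9.63 TPM in tumour cells (log2 difference 0.45, SE 0.16, limma adjusted p = 0.0255). So tumour cells held Il18rap transcripts but Il18r1 at only 0.312 TPM. Il15ra, which presents IL-15, was lower in OT1 cells at 49.6 against 119 TPM. Downstream, Jak3 and Stat4 averaged 139 and 79.6 TPM in OT1 cells, against 25.4 and 0.266 TPM in tumour cells, and Stat3 averaged 385 TPM in OT1 cells, against 75.7 TPM in tumour cells. Of 23 tested JAK, STAT and SOCS genes 13 were higher (6 by 4-fold) and 7 lower, against 11 and 6 without OT1 libraries 2, 4 and 5 and 15 and 4 under median-of-ratios scaling. The share over all genes tested was 30.1% higher (10.0% by 4-fold) and 44.4% lower. Socs1 did not pass, at 22.1 ± 2.72 TPM in OT1 cells, against 19.8 ± 5.05 TPM in tumour cells (log2 difference 0.18, SE 0.17, limma adjusted p = 0.347).

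Genes for phosphatases and membrane proteins of leukocytes fell on both sides. Ptpn22, which restrains receptor signalling, had 270.4, 293, 280, 231 and 209 TPM in OT1 libraries 1 to 5, against 3.49, 3.27, 5.08, 3.08 and 6.55 TPM in tumour libraries 1 to 5. Ptprc, which encodes CD45, averaged 482 TPM in OT1 cells, against 0.99 TPM in tumour cells, and Cd52 averaged 1864 TPM in OT1 cells, against 5.07 TPM in tumour cells. Ptpn14, a partner of YAP, was lower at 2.1 against 23.2 TPM, as were the tetraspanins Cd63 at 184 against 1063 TPM and Cd9 at 64.3 against 281 TPM. Of 23 tested phosphatases 12 were higher and 7 lower, and of 18 tested tetraspanins and similar proteins 9 were higher and 8 lower. Over all genes tested 30.1% were higher and 44.4% lower, and 44.4% of the tetraspanins and similar proteins were lower. The counts were 12 and 6 for phosphatases and 8 and 9 for tetraspanins without OT1 libraries 2, 4 and 5.

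In most listed pairs of cytoskeleton and signalling genes, the dominant member by TPM differed between the 2 cell types. Of 34 genes listed as the form that leukocytes favour, 32 were higher in OT1 cells (28 by 4-fold), none was lower, and Plcg2 and Hk1 did not pass. Among all genes tested, 30.1% were higher and 10.0% higher by 4-fold. Leukocyte genes under 1 TPM in every tumour library could only come out higher. Their 33 listed partners, mostly widely expressed paralogs, split into 6 higher, 19 lower (8 by 4-fold) and 8 that did not pass. Over all genes tested 44.4% were lower and 7.65% lower by 4-fold. The partners higher by 4-fold, Pik3r1 and Sh2d3c, were matched to Pik3r5 and Sh2d2a by role, as PI3 kinase regulatory subunits and SH2 adaptors. In 28 of the 34 pairs the leukocyte gene had the higher mean TPM in OT1 cells and the other gene the higher mean TPM in tumour cells. Without OT1 libraries 2, 4 and 5, 30 leukocyte genes were higher and 20 of their partners lower. Levels of 2 genes are compared here per transcript length, as TPM.

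Actin bundling and branching showed the exchange most plainly. Lcp1, the leukocyte plastin that bundles actin, had 618, 673, 628, 647 and 654 TPM in OT1 libraries 1 to 5, against 1.88, 0.727, 0.964, 2.38 and 2.37 TPM in tumour libraries 1 to 5. Its paralog Pls3 had 6.26, 4.28, 4.18, 7.69 and 3 TPM in OT1 libraries 1 to 5, against 58.4, 54.8, 54.9, 62.2 and 65.5 TPM in tumour libraries 1 to 5. The levels of Lcp1 hardly differed between OT1 libraries, while Pls3 was highest in OT1 libraries 1 and 4. Hcls1, the leukocyte relative of cortactin, had 234, 269, 256, 239.6 and 306 TPM in OT1 libraries 1 to 5, against 0.931, 0.446, 0.313, 1.54 and 1.78 TPM in tumour libraries 1 to 5. Cttn, which encodes cortactin, had 16.8, 4.79, 5.71, 12.6 and 4.67 TPM in OT1 libraries 1 to 5, against 97.1, 106, 102, 93 and 118 TPM in tumour libraries 1 to 5. Again neither gene overlapped between groups.

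Integrin activation followed suit. Fermt3, the kindlin of blood cells, had 135, 163, 144, 149 and 201 TPM in OT1 libraries 1 to 5, against 0.903, 0.7, 0.766, 1.43 and 2.09 TPM in tumour libraries 1 to 5. Fermt2, the kindlin of most other cells, had 1.21 to 3.84 TPM in OT1 libraries, against 28.7, 32.1, 29.5, 26.8 and 26.8 TPM in tumour libraries 1 to 5. The same held for Parvg and Parva of the integrin-linked kinase complex, Nckap1l and Nckap1 of the WAVE complex, and Evl and Enah, which lengthen actin filaments. In OT1 cells the paralogs Pls3, Cttn, Enah, Fermt2, Parva and Nckap1 stood at 8.59%, 8.62%, 8.8%, 9.17%, 8.87% and 10.4% of their tumour level. The 9 tumour markers stood at 6.11% to 18.7%, with a median of 8.11%. Whether the OT1 cells themselves held any of these 6 transcripts was not tested.

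In other pairs the dominant member also differed, but the partner was not called lower in OT1 cells. Rac2, a GTPase of blood cells, had 663, 671, 659, 594 and 558 TPM in OT1 libraries 1 to 5, against 0.62, 0.281, 0.254, 0.808 and 0.561 TPM in tumour libraries 1 to 5. Rac1, its widely used relative, had 241, 255, 229, 238 and 269.8 TPM in OT1 libraries 1 to 5, against 207, 264, 274, 242 and 298 TPM in tumour libraries 1 to 5 (log2 difference -0.05, SE 0.10, limma adjusted p = 0.646). OT1 cells thus added Rac2 to a Rac1 level that overlapped that of tumour cells, and under median-of-ratios scaling Rac1 was higher in OT1 cells (log2 difference 0.23). Tmsb4x, a thymosin that holds actin monomers, had 6319, 6901, 6470.3, 5688 and 6254 TPM in OT1 libraries 1 to 5, against 71.3, 84.1, 61.9, 77.3 and 102 TPM in tumour libraries 1 to 5. Tmsb10 had 5762, 5246, 6066, 5482 and 3505 TPM in OT1 libraries 1 to 5, against 2786, 2897, 2818, 2447 and 2864 TPM in tumour libraries 1 to 5. Both thymosins were higher in OT1 cells, Tmsb4x by far the more. Arhgdib averaged 784 TPM in OT1 cells, against 45.6 TPM in tumour cells, and its paralog Arhgdia did not pass.

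The D-type cyclins, which start the cell cycle, differed mainly in 1 gene. Ccnd1 had 37.2, 38.4, 20.4, 45.3 and 48.6 TPM in OT1 libraries 1 to 5, against 215, 246, 249.7, 216 and 291 TPM in tumour libraries 1 to 5 (log2 difference -2.70, SE 0.20, limma adjusted p = 2.3e-07). Ccnd3 had 163, 167, 152, 146 and 158 TPM in OT1 libraries 1 to 5, against 96, 110, 108, 111 and 136 TPM in tumour libraries 1 to 5 (log2 difference 0.49, SE 0.09, limma adjusted p = 0.000464). Ccnd2 had 87.3, 128, 108, 119 and 105 TPM in OT1 libraries 1 to 5, against 74, 90.9, 101, 54.7 and 96 TPM in tumour libraries 1 to 5 (log2 difference 0.41, SE 0.17, limma adjusted p = 0.0418). Ccnd1 was lower in every OT1 library, Ccnd3 was slightly higher in every one, and Ccnd2 overlapped and lost its call in several fits listed in the closing section. Of the hexokinases, which trap glucose in the cell, Hk2 was lower at 16.7 against 50.7 TPM while Hk1 did not pass at 76.8 against 66.1 TPM.

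**Figure D3:**
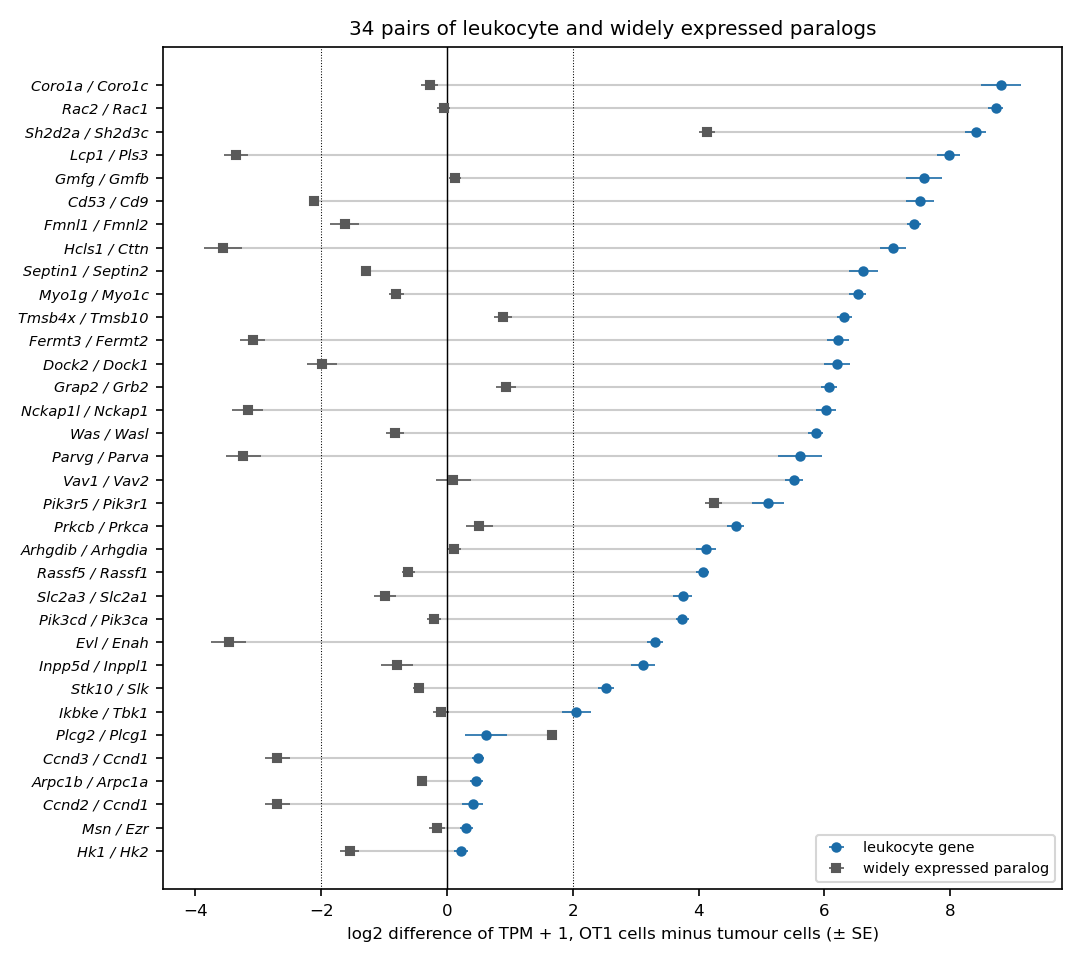
Difference of log2(TPM + 1), OT1 cells minus tumour cells, for the leukocyte gene (blue circle) and its listed partner (grey square) of 34 pairs, with bars of 1 SE. The partners, mostly widely expressed paralogs, are all labelled as such in the plot. Dotted lines mark the 4-fold differences. Most circles lie right of 2, and the squares lie on both sides of 0, with Pls3, Cttn, Enah, Fermt2, Parva and Nckap1 below -3.

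Signals between the 2 cells were followed as ligand and receptor pairs. Of 25 receptors through which T cells read tumour cells, 22 were tested and all were higher in OT1 cells, 21 by 4-fold. Tigit, Tnfrsf9 and Tgfbr2 averaged 16.4, 24 and 17.7 TPM in tumour cells. The other tested receptors averaged under 1 TPM there. These passed the filter mainly through the OT1 libraries, so their direction was all but fixed in advance. Of the 30 ligands or ligand-making enzymes, 14 were higher in OT1 cells, 8 lower, 4 did not pass and 4 were below the filter. Among all genes tested 30.1% were higher and 44.4% lower. The ligands thus did not lie mainly in the tumour libraries. The ligands gave 13 higher and 9 lower without OT1 libraries 2, 4 and 5.

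Ligands of NKG2D were the clearest signals of the tumour cell. Raet1e, a RAE-1 family ligand, had 2.6, 2.08, 1.54, 3.35 and 0.644 TPM in OT1 libraries 1 to 5, against 27.5, 25, 23.1, 23.7 and 27.4 TPM in tumour libraries 1 to 5 (log2 difference -3.18, SE 0.22, limma adjusted p = 1.5e-07). Ulbp1, which encodes the ligand MULT1, had 38.8, 26, 25, 25.2 and 18.4 TPM in OT1 libraries 1 to 5, against 71.6, 67.8, 64.8, 66 and 70.1 TPM in tumour libraries 1 to 5 (log2 difference -1.36, SE 0.15, limma adjusted p = 7.47e-06). Raet1d averaged 2.75 against 17.3 TPM, while H60b was near 0 in both groups. All 3 detected ligands were lower in every OT1 library, opposite to the receptor gene Klrk1. The Raet1 genes are close copies, so the division between Raet1d and Raet1e is uncertain.

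The ligand and receptor of the CD155 axis were opposed as well. Pvr, which encodes CD155, had 14.2, 18.4, 14.6, 12.8 and 21 TPM in OT1 libraries 1 to 5, against 39.3, 34.4, 38.8, 26.3 and 41.5 TPM in tumour libraries 1 to 5 (log2 difference -1.11, SE 0.16, limma adjusted p = 4.94e-05). Tigit, its inhibitory receptor, had 389, 310.1, 339.7, 269.9 and 153 TPM in OT1 libraries 1 to 5, against 12.6, 15.1, 17.1, 13.7 and 23.5 TPM in tumour libraries 1 to 5 (log2 difference 4.04, SE 0.24, limma adjusted p = 3.75e-08). Cd226, the activating receptor of the same ligand, averaged 35.8 TPM in OT1 cells, against 0.0319 TPM in tumour cells. The groups did not overlap for either gene, but Tigit was present in every tumour library at 5.61% of its mean OT1 level, where the median T cell marker stood at 0.1% or less and the highest, Cd247, at 3.68%. Gimap9 gave a similar picture, with 99.8, 97.2, 100.1, 68.3 and 59.2 TPM in OT1 libraries 1 to 5, against 12.8, 12.3, 10.8, 12.1 and 11.6 TPM in tumour libraries 1 to 5. Tigit and Gimap9 were singled out for this after their values were seen.

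Ligands of PD-1 and CTLA-4 lay on the OT1 side. Cd274, which encodes PD-L1, had 24.7, 52.1, 36, 39.9 and 74.5 TPM in OT1 libraries 1 to 5, against 15.7, 20.4, 21, 17 and 19.4 TPM in tumour libraries 1 to 5 (log2 difference 1.15, SE 0.24, limma adjusted p = 0.000923). Cd80, a ligand of CD28 and CTLA-4, had 45.3, 47.3, 48.9, 42.7 and 37.1 TPM in OT1 libraries 1 to 5, against 0.249, 0.18, 0.0269, 0.077 and 0.26 TPM in tumour libraries 1 to 5 (log2 difference 5.29, SE 0.12, limma adjusted p = 7.86e-12). Pdcd1lg2, which encodes PD-L2, averaged 25.7 TPM in OT1 cells, against 0.122 TPM in tumour cells. Across OT1 libraries Cd274 had the same order as the myeloid sum, while Cd80 was lowest in library 5. Cxcl16, Cd86 and Icam1, which myeloid cells express, were also higher, and Cxcl16 had 7.06, 41.8, 20.0, 28.8 and 153 TPM in OT1 libraries 1 to 5, again in the order of the myeloid sum. The part of myeloid RNA in Cd274 and these genes was not tested.

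Suppressive mediators were shared out. Nt5e, which encodes CD73 and makes adenosine, had 11.4, 10.5, 13.5, 13.4 and 5.89 TPM in OT1 libraries 1 to 5, against 17.7, 20.6, 22.7, 12.7 and 13.8 TPM in tumour libraries 1 to 5 (log2 difference -0.65, SE 0.22, limma adjusted p = 0.0198). Adora2a, the adenosine receptor of T cells, had 102, 99, 104, 89.1 and 76.1 TPM in OT1 libraries 1 to 5, against 0.0776, 0.111, 0.0336, 0 and 0.118 TPM in tumour libraries 1 to 5 (log2 difference 6.47, SE 0.11, limma adjusted p = 4.44e-12). Nt5e overlapped between the groups and lost its call under median-of-ratios scaling, without tumour replicate 3 and without OT1 libraries 2, 4 and 5 (log2 differences from -0.56 to -0.39), whereas Adora2a was even among OT1 libraries. Ptgs2, which makes prostaglandins, averaged 15.1 TPM in OT1 cells, against 24 TPM in tumour cells and lost its call under the same scaling, and its receptor gene Ptger2 averaged 24.6 TPM in OT1 cells, against 0.0259 TPM in tumour cells. Tgfb1 averaged 176 TPM in OT1 cells, against 29 TPM in tumour cells and was higher in OT1 cells, together with its receptor gene Tgfbr2 at 70.3 against 17.7 TPM.

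In the other direction, 13 of 16 T cell ligands or effectors were higher in OT1 cells, 2 were lower and Il2 was below the filter. Ligands under 1 TPM in every tumour library, such as Ifng, could only come out higher. Their 16 receptors or targets split into 7 higher, 6 lower (1 by 4-fold) and 3 that did not pass. Over all genes tested 30.1% were higher and 44.4% lower (7.65% by 4-fold). Without OT1 libraries 2, 4 and 5 the ligands gave again 13 higher and 2 lower, but the receptors turned to 6 higher and 9 lower (3 by 4-fold). Ltb, which encodes lymphotoxin beta, had 325, 383, 383, 278 and 319 TPM in OT1 libraries 1 to 5, against 0.813, 0.195, 0, 0.168 and 0.205 TPM in tumour libraries 1 to 5. Its receptor gene Ltbr had 10.9, 19.1, 10.7, 18.2 and 42.2 TPM in OT1 libraries 1 to 5, against 49.8, 68.6, 59.1, 51.1 and 71.5 TPM in tumour libraries 1 to 5 (log2 difference -1.69, SE 0.31, limma adjusted p = 0.000379). The ligand lay wholly on the OT1 side and the receptor mainly on the tumour side, where no library overlapped. Ltbr in OT1 libraries was highest in library 5.

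The 2 chains of the interferon gamma receptor differed from one another. Ifngr1, the ligand-binding chain, had 276, 373, 328, 278 and 389 TPM in OT1 libraries 1 to 5, against 28.4, 22.2, 23.3, 28.7 and 30.8 TPM in tumour libraries 1 to 5 (log2 difference 3.57, SE 0.13, limma adjusted p = 3.61e-10). Ifngr2, the second chain, had 5.52, 14.1, 4.47, 8.7 and 22.2 TPM in OT1 libraries 1 to 5, against 19.4, 16.6, 17.6, 17.7 and 24.9 TPM in tumour libraries 1 to 5 (log2 difference -0.95, SE 0.34, limma adjusted p = 0.0259). Ifngr1 was about 12 times as high in OT1 cells, and Ifngr2 was lowest in OT1 libraries 1 and 3, which held the least myeloid RNA. The Ifngr2 call was lost under median-of-ratios scaling, with no filter on low values and without any of OT1 replicate 1, OT1 replicate 3 or tumour replicate 5, with log2 differences from -0.95 to -0.68. Fas averaged 13.9 TPM in OT1 cells, against 4.27 TPM in tumour cells, Osmr 0.653 TPM in OT1 cells, against 8.65 TPM in tumour cells and the TRAIL receptor gene Tnfrsf10b 3.45 TPM in OT1 cells, against 16 TPM in tumour cells, and Tnfrsf1a did not pass. Tnfrsf1a was called lower in OT1 cells without OT1 replicate 5 (log2 difference -0.63) and without OT1 libraries 2, 4 and 5 (-0.89). Serpinb9, an inhibitor of granzyme B that protects killer cells, averaged 128 TPM in OT1 cells, against 14.9 TPM in tumour cells.

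**Figure D4:**
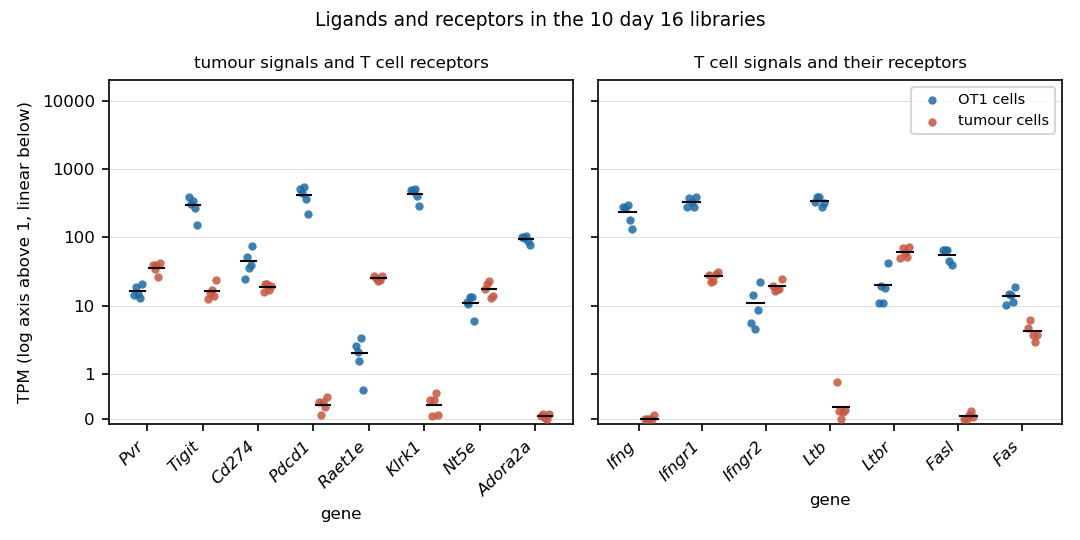
Levels of ligand and receptor genes in each library, in TPM on an axis that is logarithmic above 1 and linear below, with OT1 cells left of tumour cells and lines at group means. Tigit, Klrk1, Adora2a, Ltb and Ifngr1 lie higher in all OT1 libraries, Pvr, Raet1e and Ltbr lie lower in all of them, and Ifngr2 and Nt5e overlap.

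Lists of matrix, growth factor receptor, YAP, oncofetal and junction genes had more members lower than higher in OT1 cells. Of 39 tested matrix and plasminogen genes 31 were lower (25 by 4-fold), 5 higher and 3 did not pass, with a median log2 difference of -2.39. Of 25 receptor tyrosine kinases 19 were lower (13 by 4-fold) and 6 higher, of 22 YAP, TAZ and TEAD genes 17 were lower (12 by 4-fold) and 3 higher, and of 16 oncofetal and imprinted genes 15 were lower (9 by 4-fold) and Impact did not pass. Of 25 tested junction genes 18 were lower (10 by 4-fold), 5 higher and 2 did not pass, and 20 more were below the filter, among them Cdh1, Cdh2 and Epcam. The background was 44.4% lower and 7.65% by 4-fold. Without OT1 libraries 2, 4 and 5 the 4-fold counts lower in these 5 lists were 27, 13, 12, 9 and 10, in the order given. Fibroblast and endothelial markers moved with these lists, at a sum of 80.3 to 142 TPM in OT1 libraries and 336 to 872 TPM in tumour libraries, with 7 of 8 tested markers lower in OT1 cells, and their part was not tested.

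Yap1, the coactivator that responds to cell spreading, had 9.68, 4.35, 4.38, 8.4 and 1.9 TPM in OT1 libraries 1 to 5, against 57.8, 74.7, 75.3, 66.1 and 77.9 TPM in tumour libraries 1 to 5 (log2 difference -3.54, SE 0.30, limma adjusted p = 6.41e-07). Its partner Wwtr1, which encodes TAZ, averaged 3.73 TPM in OT1 cells, against 47.5 TPM in tumour cells, the DNA-binding factor Tead1 averaged 2.37 TPM in OT1 cells, against 33 TPM in tumour cells, and the target Ccn1 averaged 5.92 TPM in OT1 cells, against 80.0 TPM in tumour cells. Upstream kinases moved less, with Lats1 at 11.1 against 16.3 TPM and Stk4, the main kinase of this pathway in lymphocytes, higher at 73.5 against 20.6 TPM. The coactivators, their DNA-binding factors and a target thus lay on the tumour side and Stk4 on the OT1 side, under both scalings.

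Adhesion and matrix genes gave further examples. Gja1, the gap junction protein connexin 43, had 23.7, 10.8, 13.1, 21.4 and 4.81 TPM in OT1 libraries 1 to 5, against 193, 175, 196, 203 and 186 TPM in tumour libraries 1 to 5 (log2 difference -3.78, SE 0.32, limma adjusted p = 6.97e-07). Sparc, a matrix protein, had 16.2, 13.4, 9.08, 35.8 and 11.1 TPM in OT1 libraries 1 to 5, against 91.5, 209, 123, 142 and 286 TPM in tumour libraries 1 to 5 (log2 difference -3.29, SE 0.37, limma adjusted p = 6.85e-06). Tjp1 and Ocln of tight junctions averaged 3 and 0.371 TPM in OT1 cells, against 36 and 3.79 TPM in tumour cells. Sparc was lower in every OT1 library, and across tumour libraries 1 to 5 it ran in the order of the fibroblast and endothelial sums of 336, 807, 448, 643 and 872 TPM. Fn1, which encodes fibronectin, was lower in OT1 cells at 90.0 ± 62.7 TPM in OT1 cells, against 267 ± 103 TPM in tumour cells, but its libraries overlapped, with 28.9, 89.9, 45.4, 95.7 and 189.9 TPM in OT1 libraries 1 to 5. The protease gene Plau was lower, at 18.1 against 80.4 TPM.

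A few genes of these lists stood on the OT1 side. Serpine2, a protease inhibitor of the extracellular space, had 103, 113, 96.4, 148 and 89 TPM in OT1 libraries 1 to 5, against 0.0466, 1.02, 0.282, 0 and 0.236 TPM in tumour libraries 1 to 5 (log2 difference 6.42, SE 0.20, limma adjusted p = 1.33e-10). Perp, a junction protein and target of p53 in epithelia, had 30.9, 37.6, 28, 25.1 and 17 TPM in OT1 libraries 1 to 5, against 0, 0, 0, 0.0443 and 0.326 TPM in tumour libraries 1 to 5 (log2 difference 4.71, SE 0.19, limma adjusted p = 1.27e-09). Both were high in every OT1 library, did not follow the myeloid sum and were near 0 in tumour cells. Marveld2 averaged 6.29 TPM in OT1 cells, against 0.215 TPM in tumour cells, and the kinase gene Kit 7.14 TPM in OT1 cells, against 0.133 TPM in tumour cells.

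Among growth factor receptors, Pdgfra, which fibroblasts also express, had 2.57, 1.09, 1.18, 5.39 and 0.989 TPM in OT1 libraries 1 to 5, against 20.5, 22.2, 23.2, 41.5 and 26.2 TPM in tumour libraries 1 to 5 (log2 difference -3.21, SE 0.32, limma adjusted p = 2.58e-06). Fgfr1, Epha2 and Axl averaged 20.2, 7.47 and 46.3 TPM in OT1 cells, against 226, 90.7 and 248 TPM in tumour cells. Egfr was low in both, at 0.458 against 2.54 TPM. Of the oncofetal genes, Igf2bp2, an RNA-binding protein of embryos and tumours, had 16.9, 7.51, 8.21, 15.1 and 3.59 TPM in OT1 libraries 1 to 5, against 93.2, 121, 109, 98.1 and 105 TPM in tumour libraries 1 to 5 (log2 difference -3.39, SE 0.31, limma adjusted p = 1.2e-06), and Hmga1 averaged 469 TPM in OT1 cells, against 3055 TPM in tumour cells. Every tumour library exceeded every OT1 library for all of these genes.

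Cycle, methylation and nutrient genes were not set apart by their counts from all genes tested, of which 30.1% were higher and 44.4% lower. Of 25 tested cyclins, kinases and inhibitors 10 were higher and 10 lower, with 2 of each past 4-fold, of 24 methylation and Polycomb genes 9 were higher and 9 lower, and of 33 glycolytic genes 12 were higher and 14 lower. The balance depended on the scaling, since under median-of-ratios scaling the methylation and Polycomb genes gave 12 higher and 5 lower and the glycolytic genes 14 higher and 10 lower. Without OT1 libraries 2, 4 and 5 the cycle genes gave 8 higher and 10 lower, the methylation genes 9 and 7, and the glycolytic genes 11 and 13. Myc, the growth regulator, averaged 177 TPM in OT1 cells, against 914 TPM in tumour cells, and Rbl2, a brake on the cell cycle, averaged 84.6 TPM in OT1 cells, against 18.6 TPM in tumour cells. Uhrf2 averaged 93.5 TPM in OT1 cells, against 13.9 TPM in tumour cells, and Ezh2 did not pass at 73 ± 23.6 TPM in OT1 cells, against 63.7 ± 6.01 TPM in tumour cells (log2 difference 0.13, SE 0.22, limma adjusted p = 0.607). Cdkn2a, a tumour suppressor often lost in cell lines, was listed at 0 in 4 of 5 tumour libraries and averaged 2.61 TPM in OT1 cells, below the filter.

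Nutrient transporters gave single differences. Slc7a5, the large neutral amino acid transporter, had 102, 47.4, 59.2, 60.2 and 30.0 TPM in OT1 libraries 1 to 5, against 185, 188, 214, 117 and 186 TPM in tumour libraries 1 to 5 (log2 difference -1.64, SE 0.27, limma adjusted p = 0.000177). The lactate transporters Slc16a1 and Slc16a3 averaged 29.4 and 137 TPM in OT1 cells, against 131 and 494 TPM in tumour cells, whereas the glutamine transporters Slc1a5 and Slc38a1 were higher, at 211 against 146 TPM and 58.7 against 32 TPM. Of 30 tested amino acid and nutrient transporters 9 were higher and 13 lower, against 10 higher and 7 lower under median-of-ratios scaling and 9 and 12 without OT1 libraries 2, 4 and 5. The share over all genes tested was 30.1% higher and 44.4% lower. All 4 transporters higher by 4-fold, among them Slc43a2 and Cd36, were also at least 4 times as high in OT1 library 5 as in library 1. That was so for 17.1% of all genes higher by 4-fold.

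Within the OT1 group, levels were set against Cd3e to see which genes of the T cell lists kept in step with it. Not all of these genes are particular to T cells, and Itgax was itself part of the myeloid sum. Of 122 genes of the T cell lists that were 4-fold higher and averaged at least 20 TPM, 18 were T cell markers. The markers varied relative to Cd3e by at most 1.94-fold between the 5 libraries, and 45 of the other 104 genes varied by more. In 39 of the 45 the highest ratio was in OT1 library 5, which held the most myeloid RNA, and Maf, Csf2ra, Csf2rb and Ccr1 led with 10.5-fold to 25.4-fold. Cd3e itself was lowest in library 5, so a gene with even TPM also had its highest ratio there. Il2rg and Tcf7, nearly even in TPM, were counted in this way at 2.05-fold and 2.32-fold. For 2 of the 45, Tox and Klrh1, library 5 was the lowest. Klrh1, an NK-type receptor, had 156, 114, 174, 64.2 and 15.5 TPM in OT1 libraries 1 to 5, which was 22.3%, 21.2%, 30.6%, 11.3% and 4.16% of Cd3e. Tox stood at 8.79%, 3.30%, 6.50%, 5.03% and 2.36% of Cd3e. Across the libraries Tox ran in the reverse order of the myeloid sum. Both ratios were lowest in the library with the most myeloid RNA, and the part of that RNA or of other differences between libraries was not tested. The comparison with Cd3e and these 2 genes were chosen after the values were seen.

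**Figure D5:**
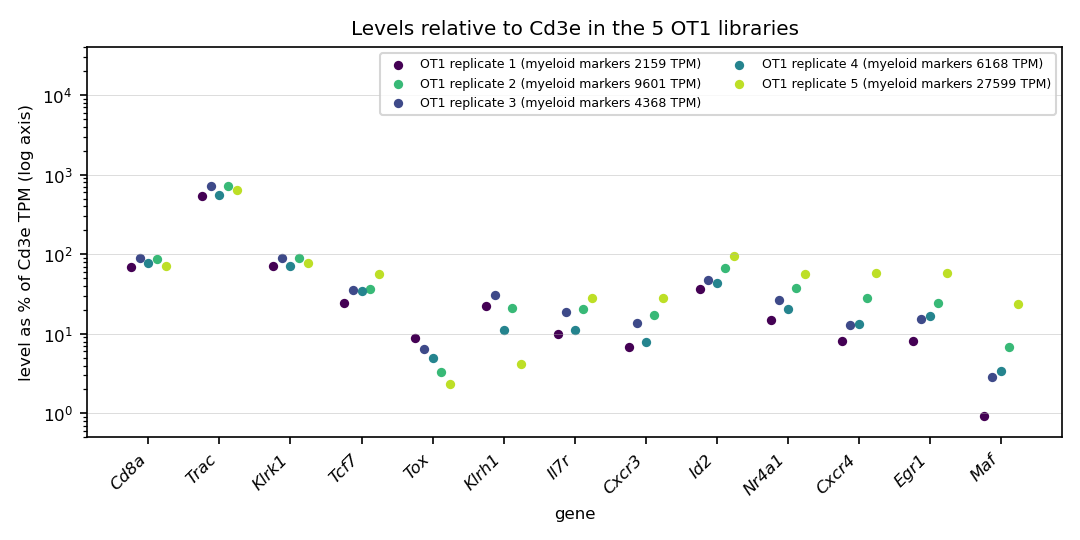
Level of 13 genes as a percent of Cd3e in each OT1 library, on a log axis, with libraries coloured from least (dark) to most (light) myeloid marker RNA. Cd8a, Trac and Klrk1 stay level, Tox and Klrh1 are lowest in OT1 library 5, and Cxcr4, Egr1 and Maf are highest there.

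Transcripts of the mitochondrial genome took 5.27 ± 1.08% of all TPM in the OT1 libraries and 3.92 ± 0.756% in the tumour libraries (SD, n = 5 each). The difference of 1.35 percentage points gave p = 0.0476 in an exact two-sided permutation test, whose smallest possible p is 0.00794, and the libraries overlapped. The call was lost in 8 of the 10 fits that left out 1 library (0.939 to 1.67 points over all 10, exact p from 0.0159 to 0.0952). The sign-flip test over same-numbered libraries gave exact p = 0.0625, the smallest it can give, so it could not pass 0.05. Without OT1 libraries 2, 4 and 5 the difference was 0.817 points (permutation test, exact p = 0.286). On so few libraries the permutation test could not pass 0.05 either. The highest shares were in OT1 library 4 at 6.93% and tumour library 4 at 5.17%, which also had the most haemoglobin and platelet RNA of their groups. The part of these libraries in the difference was not tested.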

How the data were processed

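Per the labels' protocols, Trizol RNA went into libraries made with a SMARTER mRNA-Seq kit. The deposited day 16 table holds TPM per gene, which the authors scaled to 1000000 per library. Salmon 0.13.1, STAR 2.6.1d, DESeq2 1.34.0 and the build mm10 stand in the submitters' processing notes without their roles, and the annotation and strand setting are not given in the sources used here. No count test was possible.

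Values were taken to log2(TPM + 1) and fitted with limma 3.58.1 in R 4.3.3 with a mean-variance trend, adjusted by Benjamini-Hochberg over all 13511 genes. Tested on simulated data, the fit recovered 84% of changes of log2 size 1 and 98% of size 2 (100 genes each), with 6 false calls. The simulated noise was independent and of equal spread in both groups, and only genes with a mean above 5 TPM were changed. These rates therefore need not hold for the real libraries. The 26 gene lists (723 names, 3 absent from the table) and 84 pairs were chosen with earlier results of these data known. Named genes are the 12 highest and 12 lowest differences between non-overlapping groups whose higher mean reached 5 TPM, leaving out predicted genes, mitochondrial transcripts and receptor segments, plus core and extreme members of each list and the genes of the pairs. Others named are list members. Promoters and coordinates are from RefSeq on GRCm38.p6. The 18 alternatives changed the pseudocount, filter, scaling, variance trend, replicate block or libraries.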

Additional observations from a re-analysis of the deposited data

Results flagged for a closer look

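Single libraries stood apart in 18 of the 150 groups of 5 libraries checked (75 genes), where the gap to the next library, as a share of the whole range, passed 0.71. For independent normal values chance would flag about 1 in 20 such groups, or 7.5 here. TPM values near 0 need not follow that and genes of the same library are not independent, so the 18 cannot be judged against it. In OT1 library 5, which had the most myeloid RNA, Cxcl16 was high at 153 TPM (gap 0.762, median 28.8 TPM), Ltbr was high at 42.2 TPM (gap 0.735, median 18.2 TPM) and Cd8a was low at 268 TPM (gap 0.721, median 466 TPM). In OT1 library 4, Sparc was high at 35.8 TPM (gap 0.732, median 13.4 TPM). In tumour library 5, Tm4sf1 was high at 248 TPM (gap 0.836), Krt8 at 470.2 TPM (gap 0.72) and the myeloid gene C1qa at 14.2 TPM (gap 0.771). In tumour library 4, Hbb-bs was high at 329 TPM (gap 0.834), Pdgfra was high at 41.5 TPM (gap 0.729) and Tmsb10 was low at 2447 TPM (gap 0.753). In tumour library 1, Klra4 was high at 11.8 TPM (gap 0.865, median 8.98 TPM). The others were low levels, in tumour libraries, of genes higher in OT1 cells: Xcl1 at 2.86 TPM (gap 0.795), Ltb at 0.813 TPM (gap 0.748), Klrh1 at 0.220 TPM (gap 1.0) and Tox at 0.0734 TPM (gap 1.0) in library 1, Perp at 0.326 TPM (gap 0.864) and Il7r at 0.256 TPM (gap 0.733) in library 5, and Serpine2 at 1.02 TPM (gap 0.725) in library 2. What set these libraries apart was not tested.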

How the results depend on the processing

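The count of genes lower by 4-fold, 1034, was 1568 with a pseudocount of 0.1 TPM, and the other counts over all genes moved by less than 1.5 times. Among lists, median-of-ratios scaling moved the lower counts of nutrient transporters to 7 of 30, methylation genes to 5 of 24 and JAK, STAT and SOCS genes to 4 of 23. The lower counts of residency genes moved to 3 of 33 and of T cell transcription factors to 2 of 49. The same scaling raised the partners of leukocyte genes higher in OT1 cells to 9 of 33. It lowered the receptors of T cell signals lower in OT1 cells to 4 of 16. Leaving out OT1 replicates 2, 4 and 5 moved the last count to 9 of 16 and the transcription factors lower in OT1 cells to 5 of 49. With the replicate number as a block, 9930 genes were called, 1354 higher and 1034 lower by 4-fold. Whether the numbers pair the libraries is unknown: same-numbered libraries deviated together at correlations of only 0.045 to 0.111, but 4 of 5 OT1 libraries matched their own number best, and the haemoglobin and platelet sums had the same order over the numbers in both groups. Under the block Hbb-bs (2.12), Cxcl10 (-0.94) and Cd44 (-0.26) gained calls, and Dnmt1 (-0.47) and Prkca (0.52) lost theirs. Leaving out 1 library at a time gave 9702 to 10230 calls, with 3876 to 4107 higher, 5780 to 6123 lower, 2339 to 2456 past 4-fold, 1312 to 1383 of them higher and 987 to 1087 lower. Of 285 named genes tested, 251 kept their call in every fit, 34 did not and none reversed while called. Ccnd2, at 0.41, lost its call without OT1 replicate 2 (0.35) and in other fits that left out a library, dropped the filter or dropped the trend. Of 327 list members called at 4-fold, 315 were so called without OT1 replicates 2, 4 and 5 and 317 under median-of-ratios scaling. The mitochondrial difference was 0.939 to 1.67 percentage points with 1 library left out, losing significance in 8 of 10 cases. Without OT1 replicates 2, 4 and 5 it was 0.817 (permutation test, exact p = 0.286). In the paired sign-flip test over the replicate block it was 1.35 (exact p = 0.0625, the smallest possible). Neither of these last tests could pass 0.05. The cause of these changes was not tested. No read depth is known, so no counting error can be given for values near 0 TPM.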
